A study of Mus musculus with 24 samples.

Results

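TRAV11, its duplicate TRAV11D and TRAJ18 are the V and J segments of the invariant T cell receptor alpha chain of natural killer T cells. They were taken by name: 3 of the 160 segments of the Tcra tables, which list 117 V segments against 43 J segments. Their rows and column hold 201 of the 5031 V–J pairs. Thymocytes of Satb1-/- mice and of wild-type mice, aged 4 to 12 weeks and on a C57BL/6 background, were profiled by amplifying receptor transcripts from total RNA. The 3 Satb1-/- and 3 wild-type Tcra libraries are used throughout, with the 3 and 3 Tcrb libraries for the partner chain. The labels give the knockout as Satb1-/-, the series design as a conditional knockout; the driver of any Cre is not given in the sources used here. Satb1, a nuclear protein that organises chromatin in T cells, is not measured by the tables. Neither are any other genes, so the labelled cell type can be checked only by the presence of receptor transcripts.

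Invariant natural killer T cells are T cells that recognise lipids presented by CD1d, a molecule related to the major histocompatibility complex. In mice most carry the same alpha chain, made by joining Trav11 (Vα14) to Traj18 (Jα18) with a fixed junction, paired with a beta chain from a small set of V segments. They arise in the thymus from double-positive thymocytes. Because Traj18 lies towards the 3′ end of the J array, it is mostly reached by rearrangements that follow earlier joins to 5′ J segments, in cells that live long enough to make them.

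All 3 segments lie on the plus strand of chromosome 14 (GRCm38). Traj18 (54200777 to 54200842, a single coding exon) is the 31st of the 43 listed J segments counted from the 5′ end, 19.7 kb before the constant region gene Trac. Trav11 (53519303 to 53519859) has 2 coding exons and ends 681 kb before Traj18. Trav11d (52824357 to 52824912), in an upstream duplication of the V array, ends 1376 kb before it. The second exon of Trav11 (chr14:53519569-53519859, 291 bases, most of the variable domain) and the whole of Traj18 (chr14:54200777-54200842, 66 bases) are shown, from GENCODE M21, because the invariant chain is their join and because the Trav11 sequence bears on how its rows can be read. In Trav11 the capitals mark the last 13 bases, from the codon of the conserved cysteine at which the join region begins. In Traj18 they mark the match, bases 33 to 44, to TTTGG followed by any 4 bases, GG and any base, the conserved phenylalanine–glycine turn of J segments. On the coding strand, the only one searched, 33 of the 43 listed J segments (76.7%) hold this motif.
Trav11: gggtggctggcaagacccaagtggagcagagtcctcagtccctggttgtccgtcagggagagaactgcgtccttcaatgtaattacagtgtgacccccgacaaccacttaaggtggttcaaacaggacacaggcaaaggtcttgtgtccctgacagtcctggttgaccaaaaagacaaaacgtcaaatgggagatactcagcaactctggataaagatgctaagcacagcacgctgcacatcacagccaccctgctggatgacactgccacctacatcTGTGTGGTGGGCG
Traj18: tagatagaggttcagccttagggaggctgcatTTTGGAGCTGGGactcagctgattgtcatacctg

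Trav11 and Trav11d differed at 0 of the 342 bases they share, so transcripts of the copies cannot be told apart from this coding sequence. The split between the TRAV11 and TRAV11D rows is therefore uncertain, and the rows were added (Trav11 below). Another copy, Trav11n, is annotated as a pseudogene, differs from Trav11 at 8 of 343 bases and has no row in the tables.

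Each value is a percentage of a library's V–J assignments, and depth is unknown because no counts are given. The smallest value above 0, a measure of resolution, was 0.0180%, 0.0593% and 0.117% in Satb1-/- replicates 1, 2 and 3, against 0.0158%, 0.0157% and 0.0241% in wild-type replicates 1, 2 and 3. Rare segments can therefore drop out of Satb1-/- replicates 2 and 3 at levels that wild-type libraries list. The Tcra library of Satb1-/- replicate 1 had the finest resolution of the 3 and overlapped most with wild-type replicate 1. All 16 of its TRAJ18 partners were listed with TRAJ18 in wild-type replicate 1 (16 of 40, 40.0%), against 12 in wild-type replicate 2 and 9 in wild-type replicate 3. Of its 10 J partners of Trav11, 7 were listed with Trav11 in wild-type replicate 1 (7 of 14, 50.0%), 3 in replicate 2 and 2 in replicate 3. By comparison, wild-type replicates 1 and 2 shared 21 TRAJ18 partners, 52.5% of the first list and 58.3% of the second. The overlap was not particular to TRAJ18: over all pairs, Satb1-/- replicate 1 shared 77.9%, 67.9% and 58.9% of its pairs with wild-type replicates 1, 2 and 3, and 24 of its 25 TRAJ17 partners and 14 of its 15 TRAJ16 partners were listed in wild-type replicate 1. The other Satb1-/- libraries also shared most with wild-type replicate 1. Over all pairs, replicate 2 shared 67.2%, 66.7% and 64.5% of its pairs with wild-type replicates 1, 2 and 3. Replicate 3 shared 75.4%, 69.5% and 70.3%. Whether Satb1-/- replicate 1 and wild-type replicate 1 share material was not tested. Separate mice are not stated for the replicates, so a p-value covers no more than library-to-library spread, which may be technical.

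The first comparison asked how loss of Satb1 altered the use of the invariant J segment. TRAJ18 was lower in every Satb1-/- library. It held 0.505%, 0.0593% and 0% of Satb1-/- libraries 1, 2 and 3, against 1.77%, 1.23% and 1.16% of wild-type libraries 1, 2 and 3. The groups did not overlap: the highest Satb1-/- library, replicate 1, had less than the lowest wild-type library. The means were 0.188% ± 0.276 in Satb1-/- and 1.39% ± 0.339 in wild type (SD, n = 3 each), a ratio of 0.136. In limma, fitted on all 43 J segments, TRAJ18 fell by 4.02 on the log2(percent + 0.0157) scale (SE 1.27, adjusted p = 0.0382). Of the J segments tested 65.1% were called in either direction and 46.5% (20 of 43) were called lower, and 53.5% had all Satb1-/- libraries below all wild-type ones, so TRAJ18 was one of many J segments that fell. After centring each library's log values, 12 J segments were called higher and 9 lower, against 8 and 20 without centring, and the median over all J segments moved to -0.08; TRAJ18 was still called, at -2.56 (adjusted p = 0.0390). Without Satb1-/- replicate 2, 5 J segments were called lower, and 0 without wild-type replicate 1, 2 or 3. The median over all J segments was -1.54 and that over the 14 J segments at the 3′ end (numbered 21 and below) -4.07 on the same scale. TRAJ18 had the 8th lowest log2 fold change among the 14. With an exact two-sided permutation test on the percentage itself, p was 0.1, the smallest that 3 against 3 libraries allow, and 0.333 after adjustment over 10 single values. Without Satb1-/- replicate 1 the log2 fold change was -5.32 (adjusted p = 0.00367), and without Satb1-/- replicate 3, which listed TRAJ18 at 0, it was -2.80 (adjusted p = 0.0403). The call was lost without Satb1-/- replicate 2 (adjusted p = 0.0839) and without wild-type replicate 1 (0.110), 2 (0.102) or 3 (0.0992), with log2 fold changes between -4.13 and -3.83. It was also lost with a smaller pseudocount (-4.40, adjusted p = 0.0513) and with each V–J pair counted once (-3.64, adjusted p = 0.135).

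**Figure D1:**
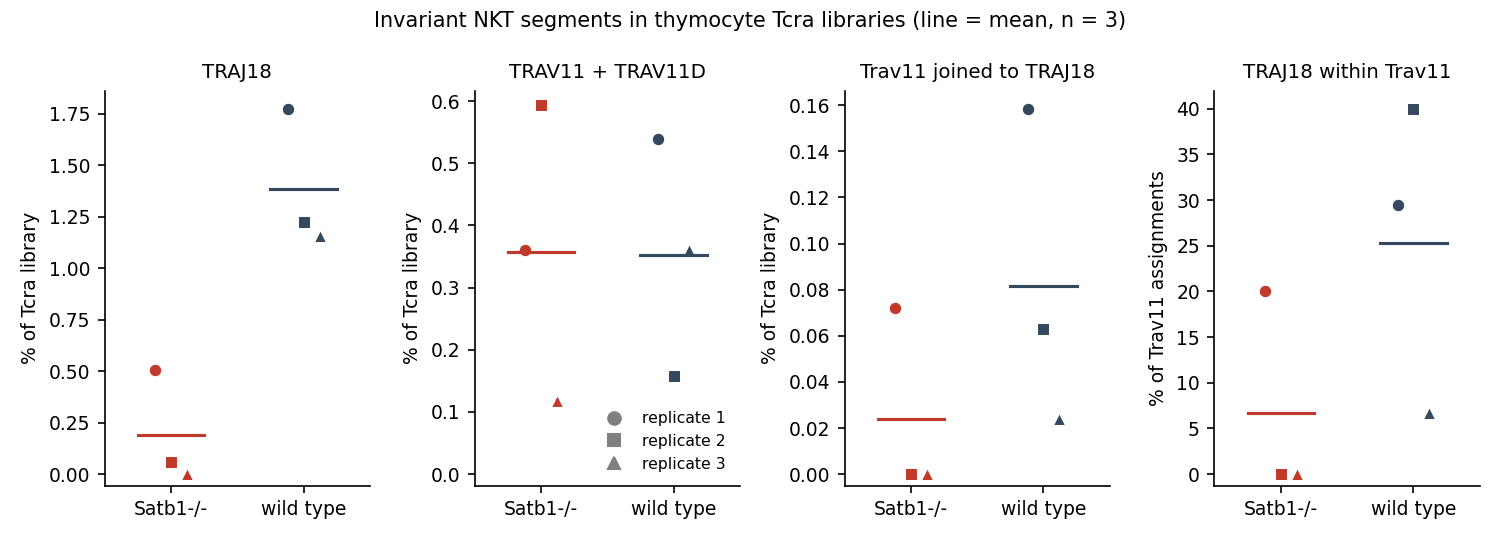
Share of TRAJ18, of TRAV11 plus TRAV11D and of the pair Trav11 with TRAJ18 in percent of each Tcra library, and TRAJ18 in percent of Trav11, for 3 Satb1-/- (red) and 3 wild-type (blue) libraries; lines are means and symbols mark replicates. TRAJ18 lies between 0% and 0.505% in Satb1-/- and between 1.16% and 1.77% in wild type, while the Trav11 shares of the groups overlap.

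The nearest listed segments on either side of TRAJ18 were read in the same way. TRAJ22, on the 5′ side, held 0.787% ± 0.650 in Satb1-/- and 2.78% ± 0.480 in wild type, and fell by 2.08 on the log2 scale (adjusted p = 0.0353). TRAJ21 held 0.722%, 0% and 0.703% of Satb1-/- libraries 1, 2 and 3, against 2.81%, 2.34% and 2.19% of wild-type libraries, a log2 difference of -3.59 that did not pass (adjusted p = 0.0952). On the 3′ side, TRAJ17 held 0.276% ± 0.336 in Satb1-/- and 2.99% ± 0.442 in wild type (log2 fold change -4.56, adjusted p = 0.0358). TRAJ16 held 0.108% ± 0.188 in Satb1-/- and 1.74% ± 0.318 in wild type (log2 fold change -5.31, adjusted p = 0.030). From TRAJ22 to TRAJ16 the ratio of the Satb1-/- to the wild-type mean was 0.283, 0.194, 0.136, 0.0923 and 0.0623, with TRAJ18 in the middle. The order did not continue beyond this stretch: the ratio was 0.249 for TRAJ23 on the 5′ side and 0.328 for TRAJ15 on the 3′ side. Differences between neighbours were not tested. The calls of TRAJ22, TRAJ17 and TRAJ16 were lost without Satb1-/- replicate 2 (adjusted p = 0.0747, 0.0713 and 0.0602), without any one wild-type library (adjusted p between 0.0923 and 0.102) and with each pair counted once (0.192, 0.192 and 0.126). That of TRAJ22 was also lost after centring (-0.63, adjusted p = 0.283). TRAJ21 passed without Satb1-/- replicate 2 (-1.75, adjusted p = 0.0183) and with the larger pseudocount (-2.56, adjusted p = 0.0178). Without Satb1-/- replicate 1 the log2 differences were -2.71 for TRAJ22, -4.52 for TRAJ21, -5.76 for TRAJ17 and -6.79 for TRAJ16, and TRAJ21 did not pass (adjusted p = 0.0613). The 3 J segments whose values over the 6 libraries lay nearest to those of TRAJ18 (Euclidean distance of log2 values, 42 compared) were TRAJ11 (0.789), TRAJ13 (1.16) and TRAJ5 (1.94), all of the 3′ list. TRAJ18 was a little-used J segment in both groups, 39th of 43 by mean share in Satb1-/- and 36th in wild type. It made up 6.06%, 2.04% and 0% of the 3′ J share of Satb1-/- libraries 1, 2 and 3, against 5.08%, 3.56% and 4.50% in wild-type libraries. These values overlap, and their difference was not tested.

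**Figure D2:**
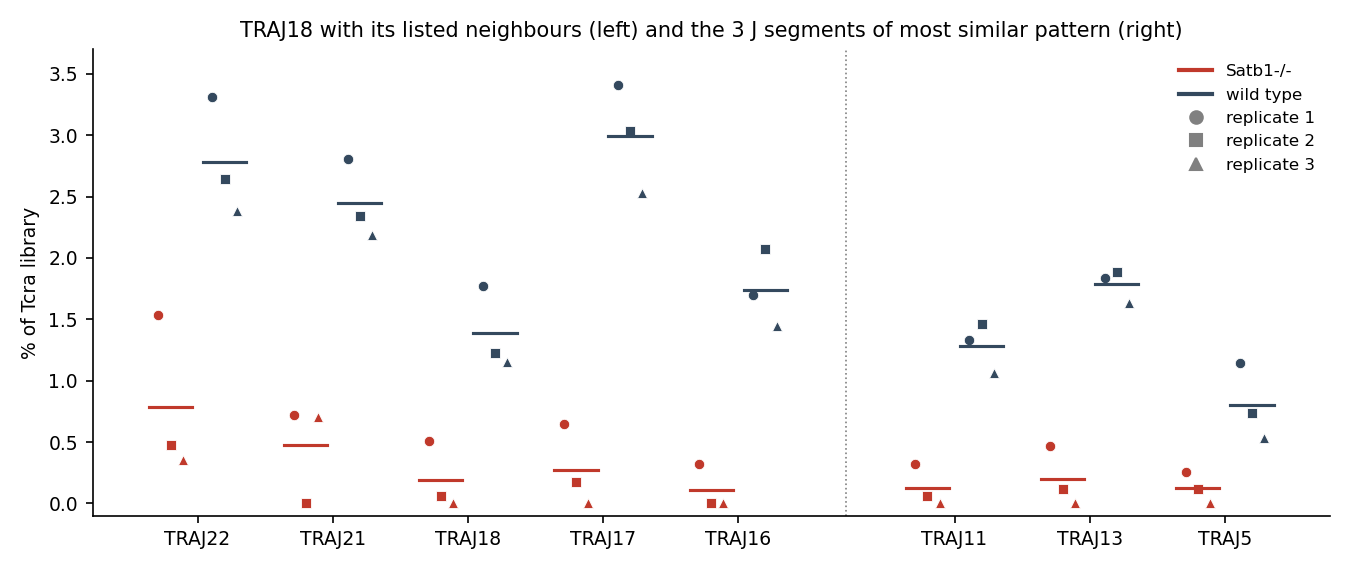
Percent of each Tcra library held by TRAJ18, by the 2 listed J segments on either side of it and, right of the dotted line, by the 3 J segments of most similar pattern; Satb1-/- libraries are red and stand left of wild-type libraries in blue, lines are means. In all 8 segments every Satb1-/- library lies below every wild-type library, as in 53.5% of the 43 J segments. The 3 on the right were picked for their likeness to TRAJ18 in these libraries, so their separation is no separate result.

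For Trav11 itself, the V segment of the invariant chain, no difference in overall use beyond the spread was found. The added rows held 0.361%, 0.593% and 0.117% of Satb1-/- libraries 1, 2 and 3, against 0.539%, 0.157% and 0.361% of wild-type libraries. Highest and lowest were both Satb1-/- libraries, replicates 2 and 3, and the groups overlapped. The means were 0.357% ± 0.238 in Satb1-/- and 0.352% ± 0.191 in wild type (SD, n = 3 each, exact two-sided permutation p = 1), a difference of 0.0047 percentage points, or 0.0028 without Satb1-/- replicate 1. With near-identical V copies summed, limma gave a log2 difference of -0.08 with a 95% interval from -1.67 to 1.5 (adjusted p = 0.965), in a fit where 18.8% of 48 V segments were called. The interval leaves room for changes of more than 2-fold either way. With the copies as separate rows, TRAV11 alone had a log2 difference of -1.0 (adjusted p = 0.663), where 4.76% of 84 V segments were called. That estimate turned to 0.65 without Satb1-/- replicate 3, which listed TRAV11 at 0 and TRAV11D at 0.117%. TRAV11D was listed in 3 of the 6 libraries: at 0.117% in Satb1-/- replicate 3, and at 0.0157% and 0.0481% in wild-type replicates 2 and 3. It did not pass the filter of a mean of 0.1%. The V segments with the pattern nearest to that of Trav11 over the 6 libraries (115 compared) were TRAV6N-6 (distance 1.44), TRAV13-3 (1.81) and TRAV10N (1.97).

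The J profile of Trav11 gave the joins behind that share. TRAJ18 was the only J segment joined to Trav11 in all 3 wild-type libraries, out of 25 joined to it in any of them; 19 of the 25 were listed in a single wild-type library. In Satb1-/- libraries 15 J segments were joined to Trav11, 0 of them in all 3 libraries. TRAJ18 made up 20.0%, 0% and 0% of Trav11 in Satb1-/- libraries 1, 2 and 3, against 29.4%, 40.0% and 6.67% in wild-type libraries. Replicate 1 of Satb1-/- alone listed the pair in that genotype and lay inside the wild-type range, and the means of 6.67% ± 11.5 in Satb1-/- and 25.4% ± 17.0 in wild type gave an exact two-sided permutation p of 0.2 (adjusted 0.333). Without that replicate they were 0% in Satb1-/- and 25.4% in wild type (exact permutation p = 0.2). Percentages within Trav11 are coarse. The whole of Trav11 was 20, 10 and 1 times the smallest value above 0 in Satb1-/- libraries 1, 2 and 3. In wild-type libraries 1, 2 and 3 it was 34, 10 and 15 times. Satb1-/- replicate 3 listed a single Trav11 pair, TRAV11D with TRAJ33 at 0.117%, its smallest value above 0, so its profile rests on that pair alone.

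After TRAJ18, which averaged 0.0818% of wild-type libraries, the J segments most joined to Trav11 in wild type were TRAJ49 (0.0241% ± 0.0417), TRAJ4 and TRAJ57 (0.0211% ± 0.0366 each) and TRAJ32 and TRAJ50 (0.0186% ± 0.0165 each). TRAJ49, TRAJ4 and TRAJ57 each came from 1 wild-type library. In Satb1-/- the highest was TRAJ47 (0.0989% ± 0.171), listed at 0.297% in replicate 2 alone. TRAJ33 followed with 0.0588% ± 0.0586, from replicates 2 and 3. TRAJ48 (0.0301%) came from replicate 1 alone, TRAJ50 (0.0258%) from replicates 1 and 2, and TRAJ18 and TRAJ57 (0.0241% each) from replicate 1 alone. All of these but TRAJ18 itself lie on its 5′ side, as do most listed J segments, since TRAJ18 is the 31st of 43. Satb1-/- replicate 1 also listed Trav11 with TRAJ17 and TRAJ4 (0.0180% each), which lie on the 3′ side.

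J segments at the 5′ end, numbered 42 and above, held 60.0%, 80.0% and 0% of Trav11 in Satb1-/- libraries 1, 2 and 3, against 23.5%, 30.0% and 40.0% in wild-type libraries. Replicates 1 and 2 of Satb1-/- lay above the wild-type range and replicate 3, with its single pair, below it. Over all V segments the same J segments held 75.6% ± 6.87 of Satb1-/- libraries and 29.4% ± 1.73 of wild-type libraries. For Trav11 the difference in means was 15.5 percentage points (exact two-sided permutation p = 0.6, adjusted 0.667), and it turned to -1.18 without Satb1-/- replicate 2. J segments at the 3′ end held 10.0% ± 17.3 of Trav11 in Satb1-/- and 42% ± 19.2 in wild type (exact two-sided permutation p = 0.2, adjusted 0.333). Over all V segments they held 4.65% ± 3.20 of Satb1-/- libraries and 31.7% ± 5.20 of wild-type libraries. These 3′ segments include TRAJ18, which alone made up 6.67% of Trav11 in Satb1-/- and 25.4% in wild type. The 3′ share and the mean J number within Trav11 therefore partly restate that pair. With TRAJ18 left out, the 5′ J segments held 51.7% ± 44.8 of Trav11 in Satb1-/- and 42.1% ± 8.36 in wild type. That difference was not tested. The mean J number within Trav11 was 47.1 in Satb1-/- replicate 2 and 33.0 in replicate 3, and 38.9 in replicate 1, with a group mean of 39.7 ± 7.08, against 30.3 ± 3.84 in wild type (exact two-sided permutation p = 0.2, adjusted 0.333). Over all V segments the mean J number was 47.2 ± 2.28 in Satb1-/- and 30.5 ± 1.56 in wild type. Trav11 was joined to 10, 6 and 1 J segments in Satb1-/- libraries 1, 2 and 3, against 14, 7 and 11 in wild-type libraries (exact two-sided permutation p = 0.2, adjusted 0.333). Over pairs at or above the resolution of the coarsest library the difference in means was 0.333, against -5 over all pairs. Without Satb1-/- replicate 1 the means were 0% in Satb1-/- and 42% in wild type for the 3′ share, 40% and 31.2% for the 5′ share, 40.05 and 30.3 for the mean J number, and 3.5 and 10.7 for the number of J partners (exact two-sided permutation p between 0.2 and 0.8).

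**Figure D3:**
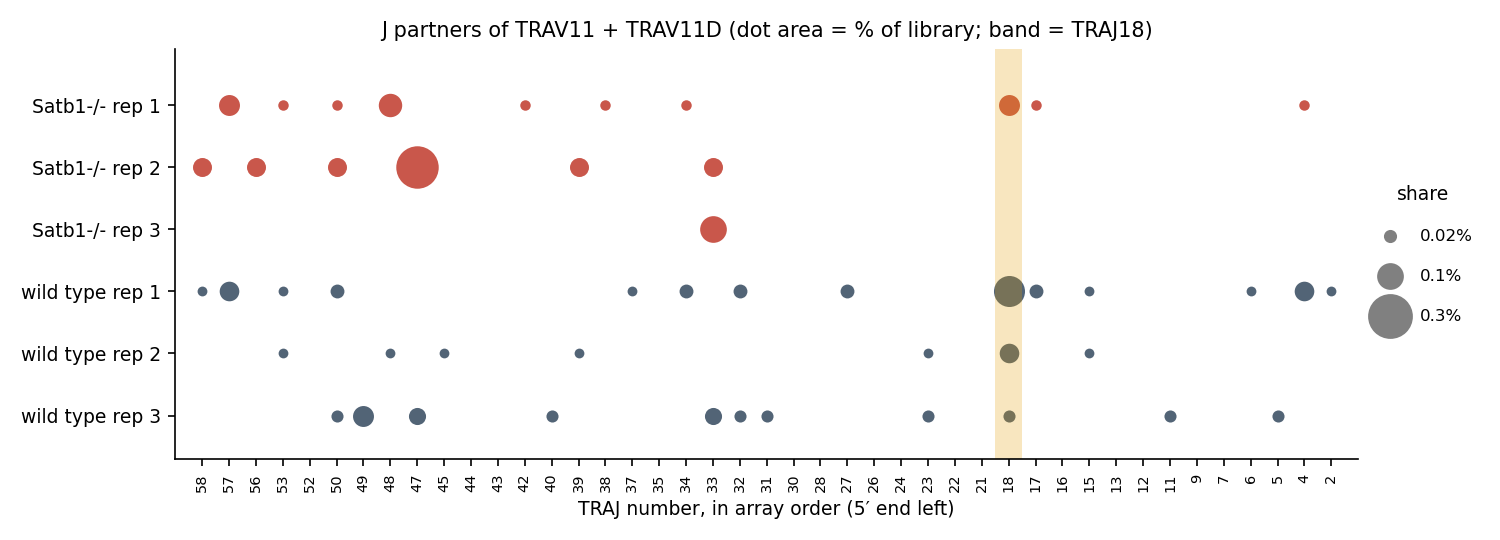
J partners of TRAV11 plus TRAV11D in each Tcra library, with J segments in array order from the 5′ end and dot area proportional to the percent of the library; Satb1-/- libraries are red, above wild-type libraries in blue. The shaded TRAJ18 column holds a dot in all 3 wild-type libraries, from 0.0241% to 0.158%, and in Satb1-/- replicate 1 (0.0722%).

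The joint value of Trav11 with TRAJ18 was then set against the product of the 2 shares, the value that independent joining would give. The pair held 0.0722%, 0% and 0% of Satb1-/- libraries 1, 2 and 3, against 0.158%, 0.0629% and 0.0241% of wild-type libraries. Satb1-/- replicate 1 lay inside the wild-type range. The product was 0.00182%, 0.000352% and 0% in Satb1-/- libraries 1, 2 and 3, against 0.00956%, 0.00193% and 0.00417% in wild-type libraries. In all 6 libraries the product lay below the smallest value above 0, so any listing of the pair exceeds it. Where the pair was listed, it was 39.6 times the product in Satb1-/- replicate 1, against 16.6, 32.6 and 5.77 times in wild-type replicates 1, 2 and 3. These ratios rest on few assignments: the joint value was 4 times the smallest value in Satb1-/- replicate 1, against 10, 4 and 1 times in wild-type replicates 1, 2 and 3. In wild-type replicate 3 the excess is thus a single smallest step.

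The joint share minus the product was 0.0233 ± 0.0407 percentage points in Satb1-/- and 0.0766 ± 0.0659 in wild type, a difference of -0.0533 (exact two-sided permutation p = 0.3, adjusted 0.375). The joint share itself averaged 0.0241% ± 0.0417 in Satb1-/- and 0.0818% ± 0.0692 in wild type (exact two-sided permutation p = 0.3, adjusted 0.375). Without Satb1-/- replicate 1 both remaining Satb1-/- libraries listed the pair at 0, at resolutions of 0.0593% and 0.117%. Wild-type replicate 3 lay below the first of these values, and the other wild-type libraries below the second except replicate 1. A pair at the level of wild-type replicate 3 could therefore go unlisted in both. At the level of wild-type replicate 2 it could go unlisted in Satb1-/- replicate 3, and lay close to the smallest value of Satb1-/- replicate 2. Only the level of wild-type replicate 1, 0.158%, lay above both resolutions, and it was close to that of Satb1-/- replicate 3 (0.117%). These zeros therefore do not establish a loss. Junction sequences are not given, so joins of Trav11 to TRAJ18 were not checked for the fixed junction of the invariant chain. In these bulk libraries fewer cells with the pair and less of its RNA per cell cannot be told apart.

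**Figure D4:**
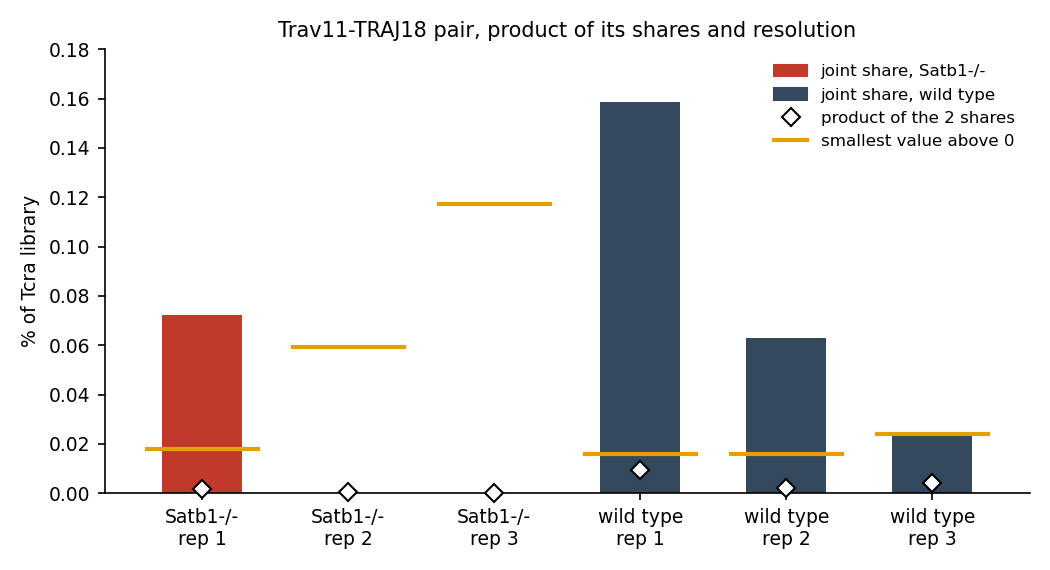
Percent of each Tcra library held by the pair of Trav11 with TRAJ18 (bars, red for Satb1-/- and blue for wild type), the product of the shares of its segments (diamonds) and the library's smallest value above 0 (orange lines). The product lies under the orange line in all 6 libraries, and the bar stands at or above the line where the pair was listed.

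Among the V partners of TRAJ18, Trav11 had the highest ratio of joint share to product in Satb1-/- replicate 1 (of 16 partners, rows added) and in wild-type replicate 2 (of 35), the second highest in wild-type replicate 1 (of 40) and the 6th in wild-type replicate 3 (of 29). Among the J partners of Trav11, TRAJ18 ranked first in Satb1-/- replicate 1 and in wild-type replicates 1 and 2, and 5th in wild-type replicate 3. Over all pairs above 0, a ratio as high or higher was found for 0.942% in Satb1-/- replicate 1, against 0.859%, 0.203% and 10.5% in wild-type replicates 1, 2 and 3. By joint share minus product, the pair ranked 100th of all pairs in Satb1-/- replicate 1. In wild-type replicates 1, 2 and 3 it ranked 17th, 138th and 628th. Among V segments with TRAJ18, Trav11 ranked 2nd by this measure in Satb1-/- replicate 1, and 1st, 1st and 14th in wild-type replicates 1, 2 and 3. The copies contributed unevenly. TRAV11D held 0.0157% of the 0.0629% in wild-type replicate 2 and the whole 0.0241% in wild-type replicate 3, while TRAV11 held all of it in wild-type replicate 1 and in Satb1-/- replicate 1. In wild-type replicate 3 the pair of Trav11 with TRAJ18 would be missed if TRAV11 were read alone.

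The other V partners carried most of TRAJ18. It was joined to 16, 1 and 0 V segments in Satb1-/- libraries 1, 2 and 3, against 40, 36 and 29 in wild-type libraries (exact two-sided permutation p = 0.1, the smallest possible, adjusted 0.333). Without Satb1-/- replicate 1 the means were 0.5 in Satb1-/- and 35 in wild type. Listed pairs of all segments numbered 1380, 555 and 374 in Satb1-/- libraries 1, 2 and 3. Wild-type libraries 1, 2 and 3 listed 1978, 1969 and 1573. Over pairs at or above the resolution of the coarsest library the difference in mean V partners of TRAJ18 was -2, against -29.3 over all pairs. The number of partners thus depends on resolution. Of 60 V segments joined to TRAJ18 in any library, all 60 were listed in wild type, 13 of them in all 3 wild-type libraries. The one partner in Satb1-/- replicate 2 was TRAV12D-2, at 0.0593%. TRAV12D-2 averaged 0.0318% ± 0.0299 in Satb1-/- and 0.0319% ± 0.0162 in wild type, and TRAV12D-3 averaged 0.0301% ± 0.0521 in Satb1-/- and 0.111% ± 0.0556 in wild type. TRAV7D-5 averaged 0.0180% ± 0.0313 in Satb1-/- and 0.0950% ± 0.0412 in wild type, and TRAV4-4-DV10 averaged 0.0120% ± 0.0208 in Satb1-/- and 0.0739% ± 0.102 in wild type. TRAV12-2 averaged 0.00601% ± 0.0104 in Satb1-/- and 0.0688% ± 0.0365 in wild type. TRAV14D-2 averaged 0.0120% ± 0.0208 in Satb1-/- and 0.0106% ± 0.0183 in wild type. Apart from TRAV12D-2, these Satb1-/- values came from replicate 1 alone. In that library 12 of the 16 partners had a lower share with TRAJ18 than in wild-type replicate 1, where TRAJ18 itself held 1.77% against 0.505%. Of the rest, TRAV12D-2 and TRAV14D-2 held 0.0361% against 0.0317%, and TRAV6D-7 and TRAV17 held 0.0180% against 0.0158%. Such a count was not made for other J segments. Without its Trav11 pairs, TRAJ18 still held 0.164% ± 0.235 of Satb1-/- and 1.30% ± 0.271 of wild-type libraries. The lower share was thus not limited to the pair with Trav11.

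Pairs of the members were too rare for the filtered fit: 0 of the 31 listed pairs of Trav11 and 0 of the 60 listed pairs of TRAJ18 reached a mean of 0.1%. In the fit without a filter, 0 of either were called by limma at an adjusted p of 0.05, beside 4.48% of all 3123 pairs. At an unadjusted p under 0.05 there were 0 pairs of Trav11 and 12 of TRAJ18 (20.0% of the 60), beside 608 of all 3123 pairs (19.5%), so the share for TRAJ18 was at the background. The median log2 difference was -0.34 for the pairs of Trav11 and -0.62 for those of TRAJ18, against -0.45 over all pairs.

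V partners were grouped by family, since copies within a family are hard to tell apart. In wild type the largest families within TRAJ18 were TRAV7 (22.8% ± 9.33 of TRAJ18, against 21.1% ± 1.11 of the other J segments) and TRAV12 (22.8% ± 6.44, against 15.3% ± 1.02). TRAV11 was the only family whose share of TRAJ18 lay above its share of the other J segments in every comparison of wild-type libraries. It made up 5.38% ± 3.43 of TRAJ18 and 0.275% ± 0.157 of the other J segments (SD, n = 3). A single smallest step was 0.893%, 1.28% and 2.08% of TRAJ18 in wild-type libraries 1, 2 and 3. Each exceeds the highest TRAV11 share of the other J segments, 0.387%. Any listing of the pair therefore places so rare a family above, and in wild-type replicate 3 the listing was 1 step. TRAV14 lay below, with 2.51% ± 3.30 of TRAJ18 and 10.1% ± 2.33 of the other J segments, as did TRAV10 and TRAV21. TRAV1, TRAV2, TRAV15, TRAV19 and the delta V segments were listed with TRAJ18 in 0 of the 3 wild-type libraries, at 0.163% to 1.73% of the other J segments. Such small families can be missed among few TRAJ18 assignments. In Satb1-/- replicate 1 TRAV11 made up 14.3% of TRAJ18 and 0.290% of the other J segments, and TRAV12 32.1% and 8.54%.

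**Figure D5:**
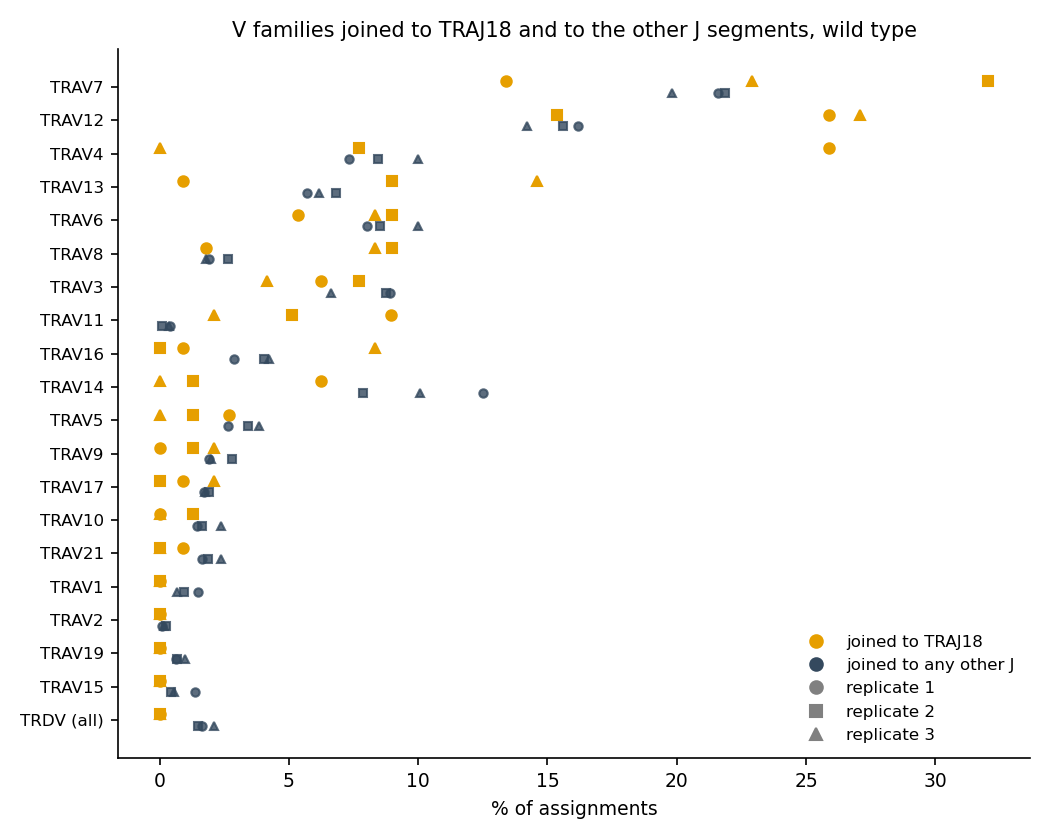
V families as percent of TRAJ18 assignments (orange, upper row of each family) and of all assignments to other J segments (blue, lower row) in the 3 wild-type Tcra libraries, with symbols for replicates. TRAV11 lies between 2.08% and 8.93% of TRAJ18 and between 0.0956% and 0.387% of the other J segments.

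The beta chain of the invariant receptor uses few V segments, mainly of the Trbv13 family (Vβ8), Trbv29 (Vβ7) and Trbv1 (Vβ2), which conventional T cells use as well. Of these 5 listed Tcrb V segments 0 rose, 0 fell and 5 did not pass limma (adjusted p between 0.592 and 0.992), where 0% of the 22 V segments were called and 3 had an unadjusted p under 0.05. When same-numbered replicates were blocked, 3 of the 22 were called, 0 of them in the list. TRBV13-1 held 6.62% ± 1.35 of Satb1-/- and 8.16% ± 0.806 of wild-type libraries, and TRBV13-2 held 8.57% ± 1.11 of Satb1-/- and 9.39% ± 0.472 of wild type. TRBV13-3 held 2.85% ± 0.534 of Satb1-/- and 2.83% ± 0.0592 of wild-type libraries, and TRBV1 held 3.44% ± 0.308 of Satb1-/- and 3.6% ± 0.524 of wild type. TRBV29 held 5.27%, 4.99% and 5.78% of Satb1-/- libraries, against 4.72%, 3.92% and 4.73% of wild-type libraries; its groups did not overlap, as in 13.6% of the 22 in that direction, with a log2 difference of 0.26 (adjusted p = 0.592). Together the 5 segments held 26.8% ± 3.05 of Satb1-/- and 28.4% ± 1.36 of wild-type libraries, and the median log2 difference was -0.06, against -0.01 over all 22.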

How the data were processed

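Receptor transcripts were amplified by 5′ RACE with a primer in the constant region of each chain and sequenced in paired reads, per the labels' protocols. Per the submitters' processing notes reads were trimmed with fastp; the segment caller, the genome build and whether reads or clonotypes were counted are not stated in any source used. The authors deposited percentages: the V by J cells of each table sum to 100 percent of a library. Counts were not reconstructed, so no counting intervals are given.

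Shares were summed over rows or columns. limma 3.58.1 (R 4.3.3) was fitted on log2(percent + pseudocount) over all J segments, V segments or pairs with a mean of at least 0.1%, with Benjamini-Hochberg adjustment and calls at 0.05. As pseudocount served the lowest non-zero percentage in any Tcra library (0.0157) or Tcrb library (0.00570). The 10 single values had exact two-sided permutation tests over 20 arrangements. Sums and permutations ran in Python 3.11.15 (scipy 1.17.1). The limma fit was tested on simulated data that held no zeros and had equal noise in every library. That test does not cover the zeros and uneven resolution of these libraries. Segments were matched by name to GENCODE M21 (GRCm38); all 3 were found. Named neighbours, similar patterns and partners followed a written rule: 2 listed J segments on either side, the 3 nearest patterns, and the 5 highest partners per genotype. The members and lists were chosen with earlier results of these data known.

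Replicate numbers pair the Tcrb libraries: deviations from the genotype means correlated above 0.1 between same-numbered libraries (r = 0.767, 0.610 and 0.489 over V segments), a pairing read from the data, so the blocked fit is given beside that result.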

Additional observations from a re-analysis of the deposited data

How the results depend on the processing

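Tcra replicate numbers did not meet the bound of 0.1 for every same-number r, but the measures differed. Over J segments these r were 0.226, -0.201 and 0.274, and not every library correlated best with its own number. Over V segments they were 0.318, -0.0367 and 0.184. Over V–J pairs every library correlated best with its own number, though r was 0.0634 for replicate 1, below the bound. Pairing of the Tcra libraries is thus unsettled. With the replicate block a difference of means is the same by construction: -1.20 percentage points for TRAJ18 (exact sign-flip p = 0.25, the smallest 3 pairs allow) and -0.0578 for the joint share (exact p = 0.25). The difference in Trav11 share, 0.00470 percentage points, turned to -0.0131 with TRAV11 alone. That in J partners of Trav11, -5, turned to 0.333 when pairs below the resolution of the coarsest library were dropped; at that bound the profile of Trav11 could not be computed, nor could it with TRAV11D alone. Leaving out each library in turn, the difference ranged from -0.113 to 0.125 percentage points for the Trav11 share and from -1.18 to 38.8 for its 5′ J share, the only ones of the 10 single values to change sign; that of TRAJ18 ranged from -1.36 to -1.003 and that of the joint share from -0.0866 to -0.0194.

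The counts of called features depended on the processing, and the cause was not tested. Leaving out each library gave 0 to 28 J segments (28 with all), 0 to 15 V segments (4), 7 to 69 pairs (72) and 0 to 1 Tcrb V segments (0). Each pair counted once gave 0 J and 0 V segments. V segments numbered 18 with the larger pseudocount, 7 without a filter, 15 with the replicate block and 9 with copies summed. Pairs numbered 140 without a filter and 36 after centring each library's log values (9 higher and 27 lower, against 46 and 26 without). Tcrb V segments numbered 3 with the replicate block and 2 after centring. For TRAJ18, the larger pseudocount (the resolution of the coarsest library) gave -2.66 (adjusted p = 0.00844) and the replicate block -4.02 (adjusted p = 0.0414). With each library left out, TRAV11 ranged from -1.99 to 0.65 (positive without Satb1-/- replicate 3), TRBV13-3 from -0.0949 to 0.16 (positive without Satb1-/- replicate 2, and 0.0059 without wild-type replicate 3) and TRBV1 from -0.19 to 0.0101 (positive without Satb1-/- replicate 3 or wild-type replicate 1). Depth is unknown; resolution limits every value near 0.1%.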
